A study of Mus musculus with 116 samples.

Results

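The insulin-like growth factor (IGF) family was followed here as 10 named genes among the 40202 gene symbols of the count files: the binding proteins Igfbp2, Igfbp3, Igfbp4, Igfbp5, Igfbp6 and Igfbp7, the receptors Igf1r and Igf2r, and the ligands Igf1 and Igf2. They were chosen by name, and the choice started from the nearly complete restriction of Igfbp4 counts to C10 cells, so the contrast between the cell lines is described below for these genes and not tested. The libraries were made by nanoSPLITS, in which the lysate of a cell or a few cells is split between RNA sequencing and protein measurement, and only RNA was analysed here. All groups were untreated mouse cell lines in standard culture: single cells of C10, labelled alveolar type II epithelial (48 libraries), single cells of SVEC, labelled endothelial (48 libraries), and an input series of C10 with 1 cell (8 libraries), 3 cells (6 libraries) or 10 cells (6 libraries) per library. No library carried a treatment or a genetic change in the labels, and nothing in them said whether libraries of a group came from separate cultures, so p-values below measure the spread between libraries only, which may be technical.

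IGF1 and IGF2 are secreted growth factors that act through IGF1R, a receptor tyrosine kinase which signals to the PI3K-AKT-mTOR and RAF-MAPK pathways. IGF2R, the cation-independent mannose 6-phosphate receptor, has no kinase: it carries lysosomal enzymes to the lysosome and removes IGF2 from the cell surface. In body fluids most IGF is held by secreted binding proteins, which lengthen its life and limit or aid its access to the receptor. IGFBP4 is best known as an inhibitor of IGF action that the protease PAPP-A cleaves, IGFBP6 prefers IGF2, and IGFBP7 binds IGFs weakly and is found in the matrix of blood vessels.

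The promoters of the 3 members with the widest contrast between the lines are shown first, because these members carry most of what follows. Each sequence is the 250 bases before the start site in the RefSeq annotation of GRCm38.p6, 5′ to 3′ on the gene's strand; capitals mark TATAAA or GGGCGG, or their reverse complements TTTATA and CCGCCC. Igfbp4 lies on the plus strand at chr11:99040994-99041243, Igfbp7 on the minus strand at chr5:77408046-77408295, and Igfbp6 on the plus strand at chr15:102143936-102144185.
Igfbp4: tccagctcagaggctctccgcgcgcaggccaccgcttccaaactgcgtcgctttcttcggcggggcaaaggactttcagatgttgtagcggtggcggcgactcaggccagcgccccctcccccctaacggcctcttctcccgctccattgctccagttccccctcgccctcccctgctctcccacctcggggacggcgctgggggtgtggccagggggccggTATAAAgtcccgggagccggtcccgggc
Igfbp7: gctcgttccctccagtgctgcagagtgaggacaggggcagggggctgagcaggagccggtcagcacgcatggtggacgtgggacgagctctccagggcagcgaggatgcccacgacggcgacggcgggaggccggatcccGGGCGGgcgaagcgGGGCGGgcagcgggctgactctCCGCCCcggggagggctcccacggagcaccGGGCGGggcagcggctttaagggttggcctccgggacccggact
Igfbp6: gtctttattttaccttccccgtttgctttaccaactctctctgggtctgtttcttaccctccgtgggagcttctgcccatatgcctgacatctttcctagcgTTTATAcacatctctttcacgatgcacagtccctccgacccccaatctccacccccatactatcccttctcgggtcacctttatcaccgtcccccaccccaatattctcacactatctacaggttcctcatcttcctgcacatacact

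The Igfbp4 window held TATAAA on its own strand, with its first base at -28 from the start site, and no GGGCGG. The Igfbp7 window held no TATAAA and 4 GGGCGG matches, 3 on its own strand and 1 on the other. The Igfbp6 window held TATAAA on the opposite strand only, at -148, and no GGGCGG. GC content was 69.2% for Igfbp4, 74.0% for Igfbp7 and 49.6% for Igfbp6. Of 32851 RefSeq promoter windows of the same length, 12.4% held TATAAA and 32.7% held GGGCGG on either strand. These matches describe letters in the window and were not tied to the counts. All 10 members had a promoter in the RefSeq table, with 14 start sites among them. RefSeq places Igfbp2 and Igfbp5 on chromosome 1, Igfbp3 on chromosome 11, Igf1r and Igf2 on chromosome 7, Igf2r on chromosome 17 and Igf1 on chromosome 10.

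Counts are scaled below to a library total of 1000000 (CPM). Of the 116 libraries, 114 were used: C10 single-cell replicates 37 and 48 held 971 and 56 counts, none of them on a member. Library totals ran from 83188 to 5911755 in C10 single cells (median 1881704, n = 46), from 5122 to 2831907 in SVEC (median 434945, n = 48) and from 430798 to 15385625 in the input series. Replicate 1 of the 1-cell group stood apart, with 64.6% of its counts on mitochondrial genes, 538 genes with a count and no member count. The labelled cell types were hardly visible in marker genes: of 12 endothelial markers 6 had any count in SVEC and none a count in at least 50% of the cells (summed level 0 to 138 CPM), and of 10 alveolar type II markers 4 had any count in C10 cells, with Sftpa1, Sftpb, Sftpc, Sftpd and Nkx2-1 at 0 (summed level 0 to 129 CPM). The alveolar type II marker Etv5 had a count in 24 of 46 C10 and 3 of 48 SVEC cells, and Cdh1, of 6 epithelial markers, in 24 and 1; the other 5 epithelial markers had counts in 0 to 3 C10 cells and in no SVEC cell. Of 9 mesenchymal markers 4 had a count in at least 50% of the cells of each line, Col1a1, Col3a1, Acta2 and Dcn, while Col1a2, Pdgfra and Pdgfrb were sparse and Thy1 and Lum at 0. Their median summed level was 4091 CPM in C10 (863 to 15621) and 2164 CPM in SVEC (0 to 11868), most of it from Dcn and Acta2. Their part in the results below was not tested.

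Igfbp4 was the member that set the lines apart most widely. It had a count in 45 of 46 C10 single cells (97.8%, Wilson 95% interval 88.7% to 99.6%) and in 3 of 48 SVEC cells (6.25%, interval 2.15% to 16.8%). In C10 cells its level ran from 0 through a median of 287 to 703 CPM (299 ± 161, SD, n = 46), and in SVEC cells from 0 through a median of 0 to 42.3 CPM (1.09 ± 6.17, SD, n = 48). The ranges overlapped, but 44 of 46 C10 cells lay above the highest SVEC cell. The fitted log2 fold change of C10 over SVEC was 8.18 ± 0.58 (SE, edgeR). Leaving out the highest SVEC cell lowered the SVEC mean to 0.216 CPM.

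The few cells against this pattern were looked at singly. The SVEC cells with Igfbp4 were replicate 4 with 3 counts of 663417 (4.52 CPM), replicate 13 with 9 counts (5.64 CPM) and replicate 16 with 13 counts of 307014 (42.3 CPM). None of these 3 had a count of Igfbp7, the other binding protein that was higher in C10, where 11 of all 48 SVEC cells had one. All of these 3 cells had an Igf1 count, from 1 to 221, where 13 of 48 SVEC cells had one. The C10 single cell without Igfbp4 was replicate 31, and its depth was high: 5124498 counts, with 188 on Igfbp7, 223 on Igf1r and 44 on Igfbp3. In the other C10 single cells the lowest Igfbp4 level was 7.17 CPM.

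Detection was also compared at equal depth. With each library of at least 100000 counts thinned to 100000, the expected share with an Igfbp4 count was 96.8% of 45 C10 cells and 4.34% of 42 SVEC cells, and the same libraries as sequenced gave 97.8% and 7.14%. Across C10 cells the Igfbp4 level and the library total had a Spearman rho of 0.03 (n = 46; both from the same library).

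Igfbp7, a secreted protein of the vessel wall that shares the binding proteins' IGF-binding domain, was also higher in C10. It had a count in 42 of 46 C10 cells and 11 of 48 SVEC cells. Its level ran from 0 through a median of 58.5 to 252 CPM in C10 (71.9 ± 60.7, SD, n = 46), and from 0 through a median of 0 to 101 CPM in SVEC (4.67 ± 16.4, SD, n = 48). Only 11 of 46 C10 cells lay above the highest SVEC cell, which was a shallow library with 5 Igfbp7 counts of 49358. Without that library the SVEC mean was 2.62 CPM. Among libraries of at least 100000 counts the highest SVEC level was 48.6 CPM, and 30 of 45 C10 cells lay above it. The log2 fold change of C10 over SVEC was 4.34 ± 0.68 (SE, edgeR). RefSeq places Polr2b across Igfbp7, and the strand setting of the counting was not given in the sources used here. Polr2b had counts in both lines, in 28 of 46 C10 and 23 of 48 SVEC cells.

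Igfbp6, the binding protein with a preference for IGF2, had the opposite pattern. It had a count in 36 of 48 SVEC cells and 14 of 46 C10 cells. Its level ran from 0 through a median of 135 to 803 CPM in SVEC (179 ± 202, SD, n = 48), and from 0 through a median of 0 to 124 CPM in C10 (16.3 ± 32.9, SD, n = 46). The ranges overlapped, with 25 of 48 SVEC cells above the highest C10 cell. The log2 fold change of C10 over SVEC was -3.03 ± 0.74 (SE, edgeR). Thinned to 100000 counts, the expected shares were 78.1% of SVEC and 28.9% of C10 cells. In SVEC the Igfbp6 level and the library total had a Spearman rho of 0.39 (n = 48; both from the same library).

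Igfbp3, the main carrier of IGF in blood, had a count in 17 of 48 SVEC and 9 of 46 C10 cells. Its SVEC levels ran from 0 through a median of 0 to 1669 CPM (59.5 ± 246, SD, n = 48), and its C10 levels from 0 through a median of 0 to 106 CPM (6.11 ± 20.3, SD, n = 46). The highest SVEC value came from 11 counts in replicate 20, a library of 6591 counts in all, and without it the SVEC mean was 25.3 CPM. The C10 mean without its highest cell was 3.90 CPM. The log2 fold change of C10 over SVEC was -2.12 ± 0.91 (SE, edgeR), and 6 of 48 SVEC cells lay above the highest C10 cell. Igfbp2 and Igfbp5, neighbours on chromosome 1, were close to absent. Igfbp2 summed to 9 counts in 8 of 114 libraries. Igfbp5 had 144 counts in C10 single-cell replicate 26 (78.5 CPM) and 0 in the other libraries. A count of 0 in all 48 SVEC cells allows a share of up to 6.25% of cells with an Igfbp5 count by the rule of 3 counts, and the Wilson upper limit is 7.41%.

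**Figure D1:**
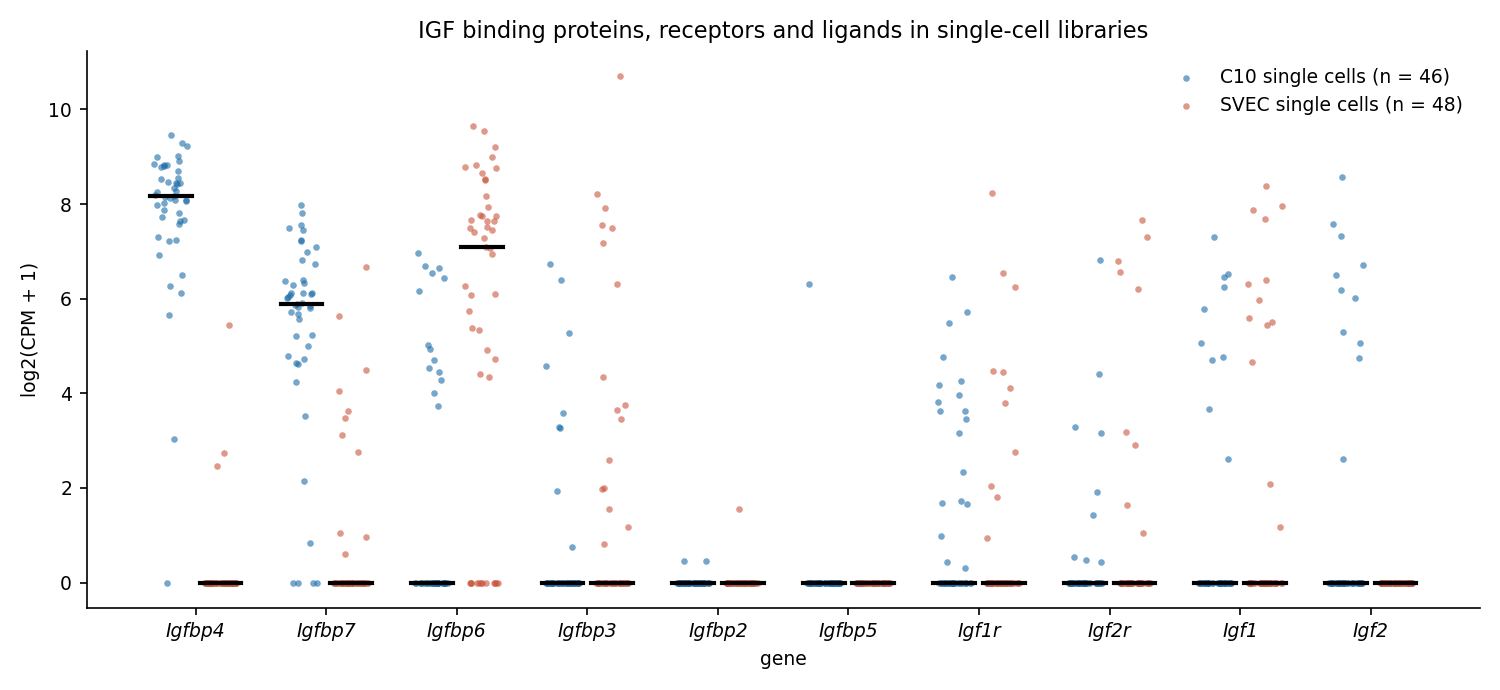
Level of each of the 10 genes in single-cell libraries of C10 (blue, n = 46) and SVEC (red, n = 48), as log2(CPM + 1) on the vertical axis; each point is 1 library and each bar the median. Igfbp4 and Igfbp7 have medians above 0 in C10 only and Igfbp6 in SVEC only, while the other 7 genes have a median of 0 in both lines.

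The receptors were sparse in both lines. Igf1r, the signalling receptor, had a count in 19 of 46 C10 cells, with levels from 0 through a median of 0 to 87.3 CPM (7.06 ± 16.4, SD, n = 46). It had a count in 11 of 48 SVEC cells, at 11.5 ± 45.9 CPM (SD, n = 48, median 0), and its highest cell held 103 of 343655 counts. The ranges overlapped almost wholly, with 2 SVEC cells above the highest C10 cell, and the log2 fold change of C10 over SVEC was -0.38 ± 0.79 (SE, edgeR). Its sign turned with DESeq2 (0.90) and limma (0.39), so no direction is given. Without its highest cell the SVEC mean was 5.32 CPM. Igf2r, which clears IGF2, had a count in 9 of 46 C10 and 9 of 48 SVEC cells, at 3.36 ± 16.8 CPM (SD, n = 46) and 13.5 ± 41.7 CPM (SD, n = 48), and did not pass the detection filter of the fit, a count in at least 25% of the cells of either line. Without their highest cells these means were 0.942 and 9.57 CPM. Airn, a noncoding RNA that overlaps Igf2r, had counts in 12 of 46 C10 and 15 of 48 SVEC cells.

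The ligands were also seen in a minority of cells. Igf1 had a count in 10 of 46 C10 cells (12.3 ± 31.6 CPM, SD, highest 158) and 13 of 48 SVEC cells (29.3 ± 73.1 CPM, SD, highest 333), and the log2 fold change of C10 over SVEC was -1.08 ± 0.88 (SE, edgeR). Igf2, an imprinted gene expressed mainly from the paternal copy, had counts in 11 of 46 C10 cells and in none of 48 SVEC cells. Its positive C10 cells carried 9 to 366 counts, and the highest level was 382 CPM (25.3 ± 68.2 over all cells, SD, n = 46). Over the SVEC libraries 3 counts averaged 34.3 CPM, more than the C10 mean, so no fold is given for Igf2. That average leans on the shallowest libraries: 3 counts were 586 CPM in the shallowest and 6.90 CPM at the median total. Thinned to 100000 counts, the expected share with an Igf2 count was 22.8% of 45 C10 cells and 0% of 42 SVEC cells. All 11 C10 cells with Igf2 also had Igfbp4 and Igfbp7 counts, where 45 and 42 of all 46 C10 cells had them. Of the 11, 1 had Igf1 as well.

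Of the 10 members, 6 passed the detection filter of this fit, Igfbp6 through both lines, Igfbp4, Igfbp7 and Igf1r through C10 cells alone and Igfbp3 and Igf1 through SVEC cells alone. As a description and not a test of genes chosen for this contrast, Igfbp4, Igfbp7 and Igfbp6 were the 3 past an adjusted p of 0.05. That threshold was met by 18.9% of the 9303 genes tested, 14.4% higher in C10 and 4.48% higher in SVEC, and since the members were chosen with this contrast known nothing is read from their count against it. The median log2 fold change was -0.73 over the 6 members and 0.35 over all genes tested. Of all calls 76.2% were higher in C10 with TMM factors and 57.9% with library totals in their place, which put the median over all genes at 0.00.

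Levels were then compared between members per kilobase of exon, using gene lengths of GENCODE M21. In C10 single cells the order was led by Igfbp4 at 67.6 ± 36.5 CPM per kb (SD, n = 46) and Igfbp7 at 59.5 ± 50.2 CPM per kb, neighbours that differed by less than their spread between cells, followed by Igfbp6 at 14.7 ± 29.6 CPM per kb. In SVEC cells Igfbp6 led at 161 ± 182 CPM per kb (SD, n = 48), above Igfbp3 at 19.0 ± 78.7 and Igfbp7 at 3.87 ± 13.5 CPM per kb, while Igfbp4 stood at 0.248 ± 1.40 CPM per kb. Cell by cell, the highest member per kb was Igfbp4 in 23, Igfbp7 in 20 and Igfbp6 in 3 of 46 C10 cells. In SVEC it was Igfbp6 in 32 of 48 cells and Igfbp3 in 4, and 7 cells had no member count. The cells of the C10 single-cell set thus divided between Igfbp4 and Igfbp7 as their leading member, whereas Igfbp6 led in most SVEC cells. In the 1-cell libraries of the input series Igfbp4 led in 5 of 8, Igf1r in 2 and Igfbp7 in 0, and 1 had no member count.

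Within C10 cells the levels of Igfbp4 and Igfbp7 hardly moved together. Both had a count in 41 of 46 cells, and their Spearman rho was 0.12 (n = 46 cells, each pair of values from the same library). In SVEC, all 11 cells with an Igfbp7 count also had Igfbp6, as did 12 of 13 cells with Igf1 and 13 of 17 with Igfbp3, where 36 of 48 cells had Igfbp6 in all. The 6 binding proteins together summed to 395 ± 194 CPM per C10 cell (SD, n = 46) and 244 ± 339 CPM per SVEC cell (SD, n = 48). A C10 cell showed a median of 3 of the 10 members and an SVEC cell a median of 2. Over all genes the median number with a count was 6103 in C10 and 4404 in the shallower SVEC libraries.

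**Figure D2:**
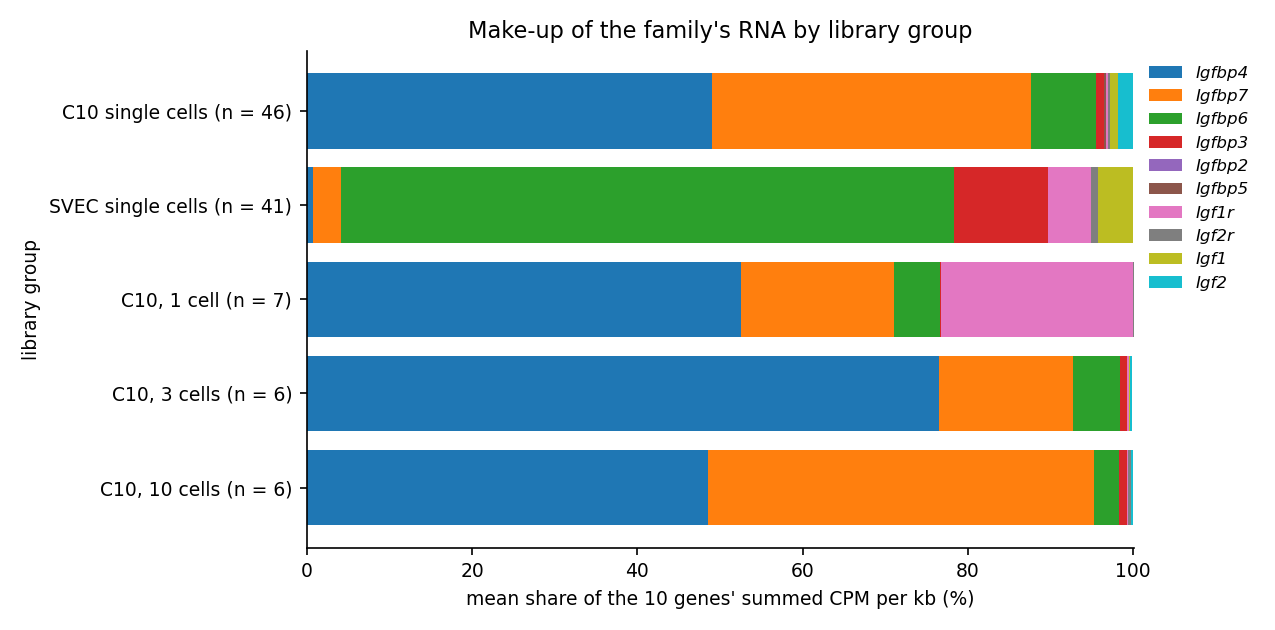
Make-up of the family's RNA in each library group, as the mean share of the 10 genes' summed CPM per kb on the horizontal axis; each bar is a group of libraries with at least 1 member count, and each colour a gene. Igfbp4 takes 49.1% and Igfbp7 38.6% in C10 single cells, Igfbp6 takes 74.2% in SVEC cells, and Igfbp4 takes 76.5% in 3-cell and 48.6% in 10-cell C10 libraries. In 1-cell C10 libraries Igfbp4 takes 52.5%, Igf1r 23.3% and Igfbp7 18.6%. The Igf1r mean there comes from the 2 libraries in which Igf1r led, and its median share is 0.0483% (n = 7).

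The C10 input series gives the same line in a set of libraries of its own. These libraries are not part of the C10 against SVEC contrast, but the genes were chosen with earlier results of these data known. Igfbp4 had counts in 6 of 8 libraries of 1 cell, 6 of 6 of 3 cells and 6 of 6 of 10 cells. Its level ran from 0 through a median of 604 to 2550 CPM with 1 cell (712 ± 862, SD, n = 8), from 379 through 1147 to 2444 CPM with 3 cells (1332 ± 720, SD, n = 6), and from 738 through 962 to 1445 CPM with 10 cells (1046 ± 285, SD, n = 6). The 3 groups overlapped, and the 1-cell libraries spread most widely. Among the 1-cell libraries, replicates 1 and 5 had 0 counts and replicate 14 had 2, while the other 5 held from 4095 to 21313. The 10-cell and 1-cell groups differed by 0.28 ± 1.17 on the log2 scale (SE, edgeR, adjusted p = 0.999), and 10 cells and 3 cells by -0.51 ± 1.26 (adjusted p = 1.00). Without the highest library, replicate 9, the 1-cell mean was 449 CPM. In a pool, fewer cells with a transcript and less of it per cell cannot be told apart.

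Between the C10 single cells and the 1-cell input libraries, Igfbp4 was the member whose difference passed the edgeR test. It was higher in the 1-cell input libraries than in the C10 single cells, with a log2 fold change of single cells over 1-cell libraries of -1.78 ± 0.59 (SE, edgeR, adjusted p = 0.0294). The single cells lay between 0 and 703 CPM, and 4 of the 8 input libraries lay above all of them. The input libraries also reached lower: replicates 1 and 5 held 0 and replicate 14 held 0.255 CPM. The lowest single cell with a count held 7.17 CPM. Of the 5 members that passed this filter, 1 was called, beside 15.1% of 12303 genes, 11.4% being higher in the 1-cell libraries. The call was lost without replicate 1 of the 1-cell group (-1.63, adjusted p = 0.0536) and with library totals (-1.25, adjusted p = 0.195), and limma on log2(CPM + 1) gave a difference of 1.60 in the other direction (adjusted p = 0.302) and called none of the 5 members beside 9.41% of genes. The calls of this fit were higher in single cells in 24.0% of cases, against 36.3% with library totals, 43.6% with DESeq2, 42.5% with a 90% filter, 52.7% with no filter and 55.5% with limma. The labels give no batch, so the set of libraries and any batch cannot be told apart. Igf2r differed by 5.26 ± 1.97 (adjusted p = 0.0612), Igf1r by -1.63 ± 1.26 (0.442), Igfbp6 by -0.75 ± 1.58 (0.830) and Igfbp7 by -0.40 ± 0.88 (0.838), all edgeR values that did not pass.

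Igf2r was found in each library of 10 cells and hardly in libraries of 1 cell. In the 6 libraries of 10 cells its level was 38.3, 9.16, 0.222, 3.24, 11.2 and 18.2 CPM (13.4 ± 13.7, SD). Among the 8 libraries of 1 cell it had a single count in replicate 5 (0.127 CPM) and in replicate 6 (0.0716 CPM), and 0 in the other 6. The groups did not overlap, although the lowest 10-cell library rested on 3 counts. The log2 fold change was 8.26 ± 1.81 (SE, edgeR, adjusted p = 0.0230), a size that rests on 2 counts in the 1-cell libraries. Pooled, 808 counts against 2 gave a CPM ratio of 465, with an exact 95% interval of 128 to 3847 for counting error alone. By limma there was a difference of 3.12 ± 0.58 on log2(CPM + 1) (adjusted p = 0.00391). Igf2r passed the detection filter, here a count in 50% or more of a group, through the pools alone, so its p-values are given as a description. With no such filter the edgeR adjusted p was 0.0527, which missed the threshold. Airn overlaps Igf2r, and without the strand setting reads in the stretch they share may not be told apart. Airn counts were found in 4 of 6 libraries of 10 cells (4.69 ± 8.34 CPM, SD) and 3 of 8 of 1 cell (7.59 ± 21.2 CPM, SD). Libraries of 3 cells ran from 0 through a median of 0.436 to 2.32 CPM, overlapping both groups, and the difference of 10 cells from 3 cells, 4.14 ± 1.69, did not pass (edgeR, adjusted p = 0.304). In the C10 single cells 9 of 46 had an Igf2r count.

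Igf2 was the other member past the threshold between 10 cells and 1 cell. It passed the detection filter through the 10-cell libraries alone, the group where it was high, so its p-value is given as a description. Its 10-cell libraries held 6.74, 0, 17.0, 13.9, 8.32 and 0 CPM (7.67 ± 7.01, SD, n = 6), and all 8 libraries of 1 cell held 0. A library with no count was present in both groups, so they overlapped at 0. Against a floor of 3 counts in each 1-cell library, 1.12 CPM on average, the 10-cell mean was at least 6.84-fold higher. Without the shallow replicate 1 it was at least 26.8-fold higher. Both bounds cover counting error only, not the spread between cells. In the C10 single cells 11 of 46 had an Igf2 count, and their mean over all 46, 25.3 CPM, was above the 10-cell mean. The edgeR adjusted p for 10 cells against 1 cell was 0.0355, and 0.0684 without replicate 1. With limma the adjusted p was 0.0669, and with edgeR and no detection filter 0.0556, both short of the threshold. The genes that RefSeq places across Igf2, Igf2os and Mir483, had no count in any group. Among 3-cell libraries 1 of 6 held Igf2, replicate 10 with 51.8 CPM, and 0 in all 8 libraries of 1 cell allows a share of up to 37.5% with a count.

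Of the 8 members that passed the filter for 10 cells against 1 cell, these 2 were called, both higher with 10 cells. Both had passed it through pools and not through the 1-cell libraries, so nothing is read from this count. In the same fit 10.7% of 13645 genes were called and 10.6% were higher with 10 cells. The median log2 fold change was 1.88 over the 8 members and 0.36 over all genes. With no detection filter both calls were lost, and 48 of 19431 genes were called. Without replicate 1 of the 1-cell group 1 member was called, Igf2r, among 336 genes. The calls were higher with 10 cells in 99.2% of cases, against 88.4% with DESeq2. By limma 2 members were called, Igf2r and Igfbp7, beside 10.3% of genes.

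Igfbp7 passed the test against 1 cell with limma and not with edgeR. Its level ran from 0 through a median of 4.73 to 297 CPM with 1 cell (64.9 ± 107, SD, n = 8), from 35.4 through 65.7 to 92.6 CPM with 3 cells (64.8 ± 22.4, SD, n = 6) and from 63.3 through 305 to 624 CPM with 10 cells (319 ± 192, SD, n = 6). Without its highest library, replicate 9, the 1-cell mean was 31.7 CPM. The 10-cell group overlapped the others, and 5 of its 6 libraries lay above all 3-cell libraries. Against 1 cell the log2 fold change was 2.05 ± 1.35 (SE, edgeR, adjusted p = 0.552) and the limma difference 4.76 ± 1.22 (adjusted p = 0.0222). Against 3 cells edgeR gave 2.14 (unadjusted p = 0.165, adjusted p = 1.00). Per kb, Igfbp7 reached 264 CPM in 10-cell libraries beside 237 CPM for Igfbp4, and each led the family in 3 of 6 libraries, whereas Igfbp4 led in 6 of 6 libraries of 3 cells.

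Igfbp6 was present at a low and even level in every pool: from 9.26 through 16.8 to 35.3 CPM with 3 cells (19.5 ± 9.33, SD, n = 6) and from 11.8 through 15.2 to 18.3 CPM with 10 cells (15.3 ± 2.90, SD, n = 6). Among libraries of 1 cell it was found in replicate 2 alone, at 169 CPM, so the group means were alike (21.1 CPM with 1 cell) while 1 of 8 libraries held all of it. The 10-cell against 1-cell log2 fold change was -0.86 ± 1.94 (SE, edgeR, adjusted p = 0.995). Igfbp3 was less even over the pools. It had counts in 1 of 8 libraries of 1 cell (5.51 CPM) and 2 of 6 of 3 cells (0.0954 and 80.0 CPM). With 10 cells it had counts in 5 of 6 libraries (13.5 ± 14.0 CPM, SD, highest 36.5). Its 10-cell against 1-cell log2 fold change was 3.93 ± 2.26 (SE, edgeR, adjusted p = 0.417).

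Igf1r had counts in 7 of 8 libraries of 1 cell and in all 12 pools. Its level ran from 0 through a median of 1.91 to 97.8 CPM with 1 cell (14.6 ± 33.8, SD, n = 8), from 0.513 through 3.36 to 48.1 CPM with 3 cells (10.7 ± 18.6, SD, n = 6) and from 3.24 through 7.74 to 17.1 CPM with 10 cells (8.56 ± 4.70, SD, n = 6). The groups overlapped, and single libraries set the means: without replicate 5 the 1-cell mean was 2.70 CPM, and without replicate 10 the 3-cell mean was 3.25 CPM. The 10-cell against 1-cell log2 fold change was -1.05 ± 1.58 (SE, edgeR, adjusted p = 0.972). Replicate 5 held 768 Igf1r counts and no Igfbp4. Igf1 had no count in the 8 libraries of 1 cell, and counts in 2 of 6 of 3 cells (8.20 and 7.70 CPM) and 2 of 6 of 10 cells (12.3 and 0.0981 CPM).

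Between 10 and 3 cells none of the 8 members passing the filter was called by edgeR, which called 0 of 13645 genes, or 0%, with 1346 at an unadjusted p under 0.05; limma called 35 genes (0.257%) and DESeq2 257, and none of these calls was a member. This comparison shares the 10-cell libraries with the one before. A library of 1 cell showed a median of 3 members, of 3 cells 5.5 and of 10 cells 7. Over all genes the median number with a count also rose, from 7568 to 10258 and 12986.

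**Figure D3:**
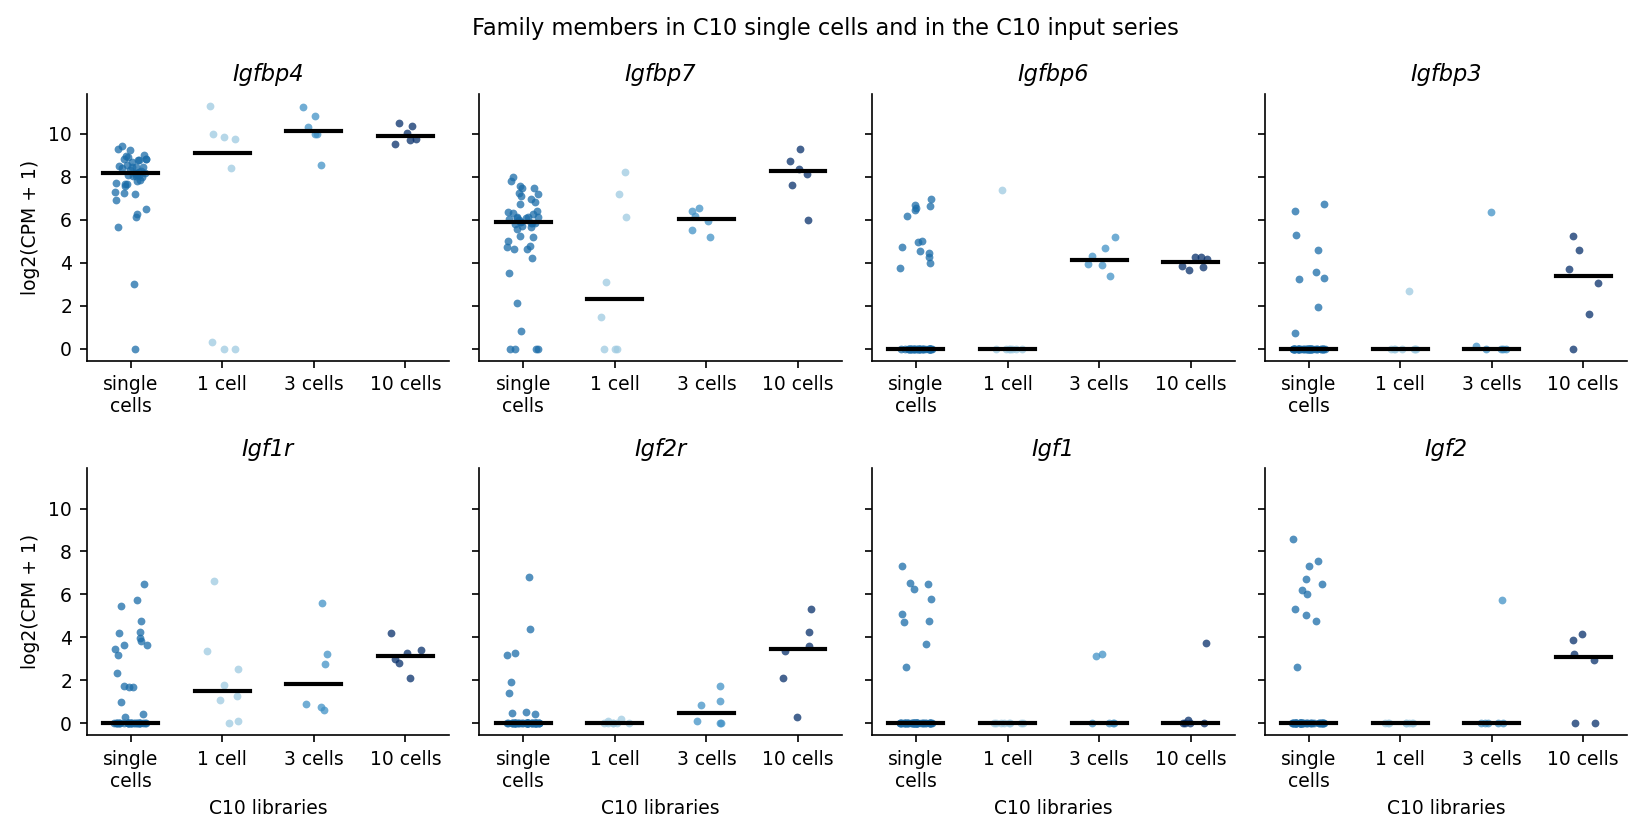
Levels of 8 members in C10 libraries, as log2(CPM + 1) on the vertical axes; each point is 1 library of the single-cell set (n = 46) or of the input series with 1 (n = 8), 3 (n = 6) or 10 cells (n = 6), and bars are medians. Igf2r and Igf2 are at or close to 0 in all libraries of 1 cell and above 0 in 6 and 4 of the 6 libraries of 10 cells.

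**Figure D4:**
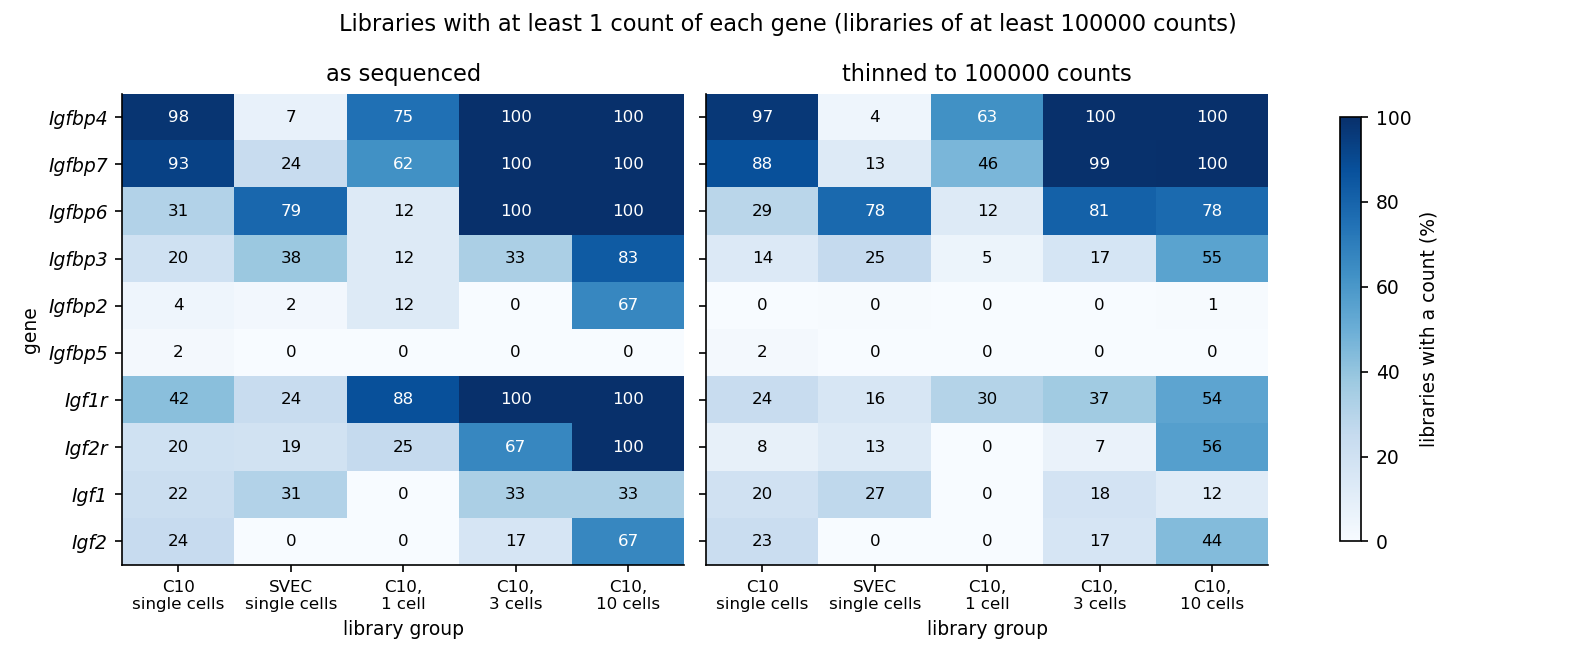
Percent of libraries of at least 100000 counts with a count of each gene, by library group, as sequenced (left) and as the expected share after thinning each library to 100000 counts (right); darker blue is a higher percent. At equal depth Igfbp4 keeps 96.8% of C10 and 4.34% of SVEC single cells, whereas Igf1r in 10-cell libraries falls from 100% to 54.1%.

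The rest of the pathway was read from a list of 69 genes in the files, of which 44 passed the filter in the C10 against SVEC single-cell fit. Of these, 7 were called higher in C10 and 3 higher in SVEC, 22.7% in all beside 18.9% of all genes. Higher in C10 were 15.9% beside 14.4%, and higher in SVEC 6.82% beside 4.48%. The median log2 fold change was 0.09 beside 0.35. With library totals 8 were called, 4 in each direction, and limma called 13 beside 34.3% of all genes, with 8 called by both. These counts, and the counts within each list below, are a description beside the shares of all genes, with no test of any list.

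Proteases and their inhibitors were led by genes higher in C10. Htra1, a secreted serine protease that cleaves IGF binding proteins, had counts in 45 of 46 C10 cells and 23 of 48 SVEC cells, at medians of 111 and 0 CPM (130 ± 121 against 33.8 ± 55.5, SD). Its level was higher in C10 by a log2 fold change of 2.31 ± 0.57 (SE, edgeR, adjusted p = 0.00118). Ctsd, a lysosomal protease sorted by mannose 6-phosphate receptors, reached 756 ± 483 CPM in the C10 cells against 307 ± 342 CPM in the SVEC cells (SD), a log2 fold change of 1.67 ± 0.40 (SE, edgeR, adjusted p = 0.000793). These 2 were called of the 2 that passed the filter. Pappa, the protease of IGFBP4, Pappa2 and the inhibitors Stc1 and Stc2 did not pass it, having counts in 0 to 4 cells of each line.

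In the PI3K-AKT-mTOR list, 4 of 17 genes were higher in C10 and 1 in SVEC, beside 14.4% and 4.48% of all genes. Eif4ebp1, the translation inhibitor that mTOR complexes switch off, was higher in C10 at 787 ± 454 against 155 ± 228 CPM (SD), with a log2 fold change of 2.88 ± 0.39 (SE, edgeR, adjusted p = 4.25e-09). The kinase gene Akt1 had a log2 fold change of 2.27 ± 0.69 (SE, edgeR, adjusted p = 0.0110) that library totals did not call (adjusted p = 0.0597). Rheb, the GTPase that activates mTOR, and the catalytic subunit gene Pik3cb were also higher in C10, by 0.97 (adjusted p = 0.0330, not called with library totals) and 3.45 (adjusted p = 0.00147), all edgeR values. Pik3cb had counts in 16 of 46 C10 and 3 of 48 SVEC cells and passed the filter through C10 alone; with no detection filter its adjusted p was 0.00132. Pik3r3, a regulatory subunit gene, was higher in SVEC (-3.21 ± 0.86, SE, edgeR, adjusted p = 0.00315) but was not called by limma (adjusted p = 0.193) or with a replicate block. It had counts in 20 of 46 C10 and 17 of 48 SVEC cells, with a median of 0 in both lines. Its SVEC level was 59.7 ± 214 CPM (SD, n = 48), with the highest cell at 1401 CPM. In the RAF-MAPK list Mapk3 was the 1 gene of 6 called, at 1.77 ± 0.59 (SE, edgeR, adjusted p = 0.0223), and library totals did not call it (adjusted p = 0.150).

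Among adaptors Grb10 was the 1 gene of 9 called, and it was absent from C10. Grb10, an imprinted gene whose product binds and restrains the insulin and IGF1 receptors, had 0 counts in all 46 C10 single cells and in all 20 C10 libraries of the input series. It had a count in 14 of 48 SVEC cells, with a highest level of 323 CPM (22.9 ± 67.6, SD, n = 48). Against a floor of 3 counts in each C10 single cell, 3.32 CPM on average, SVEC was at least 6.89-fold higher (edgeR, adjusted p = 1.71e-09). Grb10 passed the detection filter through SVEC alone, and with no detection filter its adjusted p was 4.57e-09. Grb10, Pik3r3, Pik3cb, Rheb, Gga3 and the uncalled genes of these lists fell outside the naming rule and were chosen after their values were seen. The receptor adaptors Irs1 and Irs2 were sparse, with counts in 12 and 15 of 46 C10 cells and 7 and 5 of 48 SVEC cells, and neither was called (edgeR, adjusted p = 0.763 and 0.912).

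The remaining lists held few calls. In the list of Igf2 and Igf2r imprinting, RNA binding and lysosomal sorting, Gga3 was the 1 gene of 7 called, higher in SVEC, and 4 of 6 alternatives did not call it. Of the relatives of the binding proteins, Ccn1 and Ccn2 passed the filter and neither was called (edgeR, adjusted p = 0.0584 and 0.174). Insr, the insulin receptor gene, had counts in 14 of 46 C10 and 5 of 48 SVEC cells and was not called (adjusted p = 0.421). Igfbp1, Igfals, Ins1, Ins2 and H19 had no count in any single cell.

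**Figure D5:**
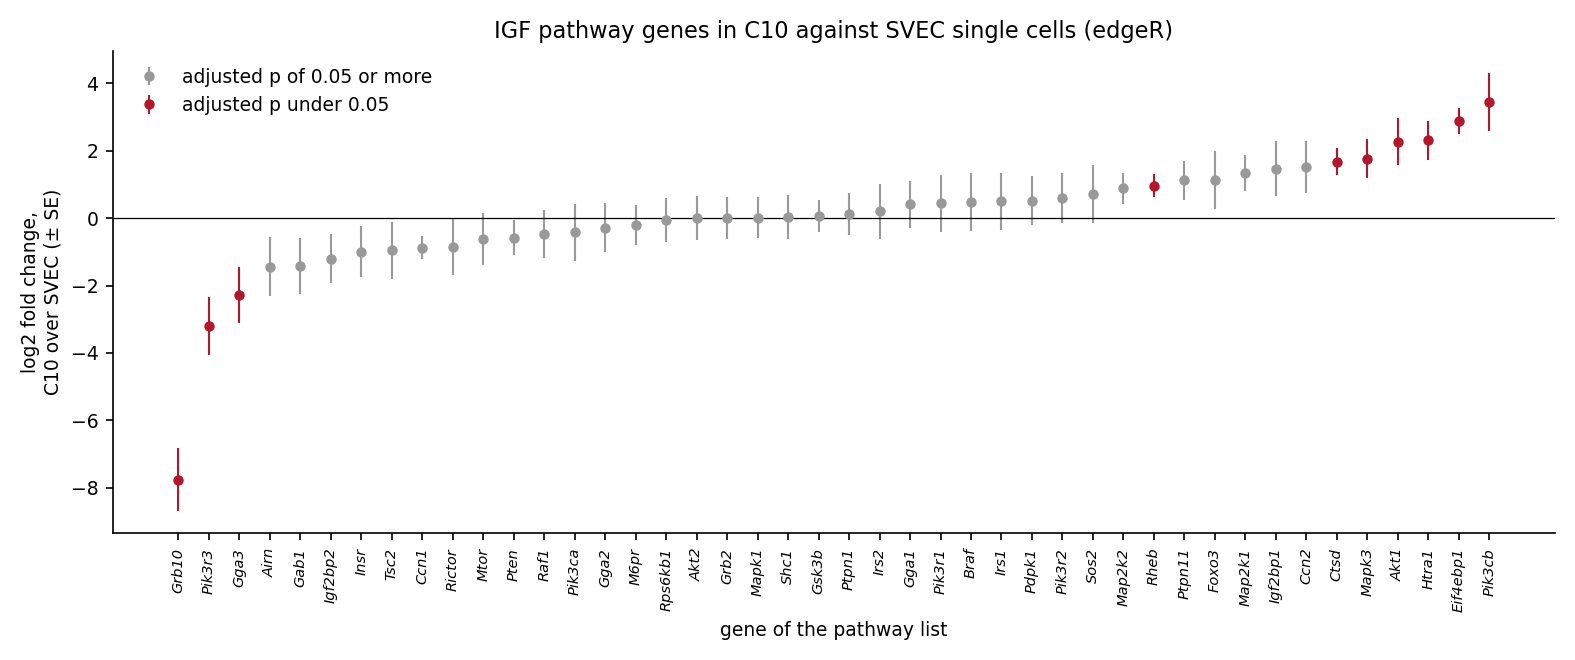
Log2 fold change of C10 over SVEC single cells for the pathway genes that passed the detection filter, in order of size; points are edgeR estimates, bars ± SE, and red marks an adjusted p under 0.05. The 3 red points below 0 are Grb10, Pik3r3 and Gga3; Grb10 had no count in C10, so its fitted value is not a measured size.

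The genes whose levels followed Igfbp4 most closely were picked among 5769 genes with a count in at least 50% of C10 single cells. Over all 114 libraries, where the difference between the lines weighs most, the highest Pearson r of log2(CPM + 1) was with Efemp1 (0.91), Crip1 (0.87), 4930525G20Rik (0.86), Flg (0.81) and Gm41958 (0.80). Efemp1, an extracellular matrix fibulin, and Crip1, a small LIM protein, had counts in 46 of 46 C10 cells and in 0 of 48 SVEC cells. Igfbp7 came 10th with 0.75. Within the 46 C10 single cells alone, the highest Spearman rho was with Cars (0.58), Lamp1 (0.56), Map1lc3b (0.55), Chchd6 (0.54) and Tmem59 (0.54), and Igfbp7 ranked 1262nd with 0.12. No gene was among the first 5 by both measures.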

How the data were processed

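The authors deposited whole-number read counts per gene symbol, 1 file per library, with no cell barcodes. Per the labels' protocols, SMART-Seq v4 Plus cDNA was sequenced as single reads; the submitters' processing notes list FastQC, STAR and HTSeq. The build, annotation and strand setting are not given in the sources used here. The labels describe no molecular identifiers; PCR copies then count as reads, and intervals and floors cover counting error only. Closing counters were left out of totals.

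The 10 members and the lists of pathway and marker genes were chosen with earlier results of these data known. Libraries under 1000 counts were left out. Depth ran from 5122 to 15385625 counts; 3 counts averaged 34.3 CPM in SVEC and 3.32 CPM in C10 single cells. The main test was edgeR 4.0.16 (R 4.3.3), quasi-likelihood F, with TMM factors and Benjamini-Hochberg adjustment over all genes tested, called at an adjusted p under 0.05. Filters asked for a count in 25% (single cells) or 50% (input series) of a group's libraries. SE came from the F statistic. Alternatives were DESeq2 1.42.0, limma 3.58.1 on log2(CPM + 1), library totals, other filters, a replicate block, libraries of at least 100000 counts, and leaving out the 1-cell replicate 1. No 2 libraries of a group agreed within sampling noise (lowest chi-square per degree of freedom 3.23). Pathway genes were named by rule: the 5 largest called changes per direction with a count in at least 50% of the higher line's libraries. Lengths came from GENCODE M21 exons on GRCm38 and promoters from RefSeq on GRCm38.p6. Of the gene symbols, 38730 of 40202 matched that RefSeq table.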

Additional observations from a re-analysis of the deposited data

Results flagged for a closer look

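In the input series a library far from the rest of its group was looked for in 24 groups of values, and 9 stood out. A 1 in 20 chance would give 1.20, but a single count can stand out where the other libraries hold 0. Nothing is therefore read from 9 against 1.20. With 1 cell, Igfbp4 stood out in replicate 9 at 2550 CPM (next 1021), Igf1r in replicate 5 at 97.8 CPM (next 9.16), Igfbp6 in replicate 2 at 169 CPM, Igfbp3 in replicate 13 at 5.51 CPM and Igfbp2 in replicate 10 at 0.0836 CPM, a single count; for the last 3 the other 7 libraries held 0. With 3 cells, replicate 10 stood out for Igfbp3 at 80.0 CPM (next 0.0954), Igf1r at 48.1 CPM (next 8.37) and Igf2 at 51.8 CPM (next 0). With 10 cells, Igf1 stood out in replicate 9 at 12.3 CPM (next 0.0981). In all 9 cases the far library was the highest of its group.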

How the results depend on the processing

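The mean Igfbp4 level kept within the spread between cells under 4 alternatives, from 292 to 323 CPM in C10 and from 0.862 to 1.43 CPM in SVEC. Counts of calls moved more, and the cause was not tested beyond the fewer or more genes that another filter tests. Between C10 and SVEC, the 1754 genes called became 3195 with limma, 5437 with no detection filter and 489 with a 90% filter, and the 10 pathway genes became 17 and 5 with those 2 filters. Between 10 cells and 1 cell, the 1456 genes became 48 with no filter, 412 with the 90% filter and 336 without replicate 1 of the 1-cell group, and the 2 members became 0, 1 and 1. Between 10 and 3 cells, the 0 genes became 257 with DESeq2 and 35 with limma. Between C10 single cells and 1-cell libraries, the 1852 genes became 1158 with limma, 4365 with no filter and 120 with the 90% filter. The 1 member called there became 0 with limma, library totals, the 90% filter or without replicate 1, and 4 with no filter.

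Same-numbered libraries of the 3 comparisons had mean correlations of their deviations of 0.00336, 0.0116 and -0.00738, so the numbers were not taken to pair them. With the replicate block, 3199 genes were called between the lines, and 0 genes and 0 members between 10 cells and 1 cell and between C10 single cells and 1-cell libraries. Between 10 cells and 1 cell, the block turned Igfbp6 to 8.00 and Igf1r to 0.32; between 10 and 3 cells it turned Igfbp3 to 6.37, Igf1r to 0.17 and Igf2 to 6.69; between C10 single cells and 1-cell libraries it turned Igfbp6 to 0.19 and Igfbp7 to 4.63, all log2 fold changes.

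Other log2 fold changes that turned sign were, for 10 cells against 1 cell, Igfbp4 with DESeq2 (-0.64), Igfbp6 with DESeq2 (3.24) and limma (3.08), and Igf1r with DESeq2 (0.26) and limma (1.03). For 10 against 3 cells they were Igfbp3 with limma (1.96) and library totals (0.02), Igf1r with limma (0.81) and Igf2 with limma (1.42). For C10 single cells against 1-cell libraries they were Igfbp4 (1.60) and Igfbp6 (0.71) with limma and Igfbp7 with limma (2.08) and library totals (0.15). Between C10 and SVEC, Igf1r turned from -0.38 to 0.90 with DESeq2, 0.39 with limma and 1.35 with the replicate block. Among the tested values that turned, Igfbp4 in C10 single cells against 1-cell libraries had passed the edgeR test. The median log2 fold change of all genes for 10 cells against 1 cell was 0.36 with TMM and 0.59 with library totals. Igf2r against 1 cell missed the threshold with no filter (adjusted p = 0.0527) and with the replicate block (0.101), and its adjusted p ran from 1.26e-05 to 0.101 over 7 alternatives. Depth limits the SVEC cells most: 6 of 48 held under 100000 counts.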
